A study of Mus musculus with 24 samples.

Results

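Of the 14912 genes in the table, 34 belong to respiratory complexes II, III and V or accompany them. They are all genes whose symbol starts with Sdh, Uqcr or Atp5, together with Cyc1 and Cycs. They comprise 4 subunit genes of complex II, 9 of complex III (among them Cyc1) and 15 of complex V, 4 assembly factors of complex II (Sdhaf1 to Sdhaf4), the electron carrier gene Cycs, and Atp5s, whose product is not a subunit of the enzyme. Left ventricles of wild-type male C57BL/6J mice were compared after 7 days of subcutaneous infusion by osmotic mini-pump. The hypertensive-LVH group (12 samples) received ANG II at 1500 ng/kg/min, a dose that raises blood pressure, and the control group (12 samples) received saline. The hearts of both groups were flushed with saline before RNA was taken from whole ventricular tissue, selected with oligo(dT) and sequenced. The study describes its samples as biological replicates and used more per group than are analysed here. The ages of the mice are not given in the sources used here.

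The 3 complexes work in the inner mitochondrial membrane. Complex II, succinate dehydrogenase, is also an enzyme of the citrate cycle and hands the electrons of succinate to ubiquinone. It is the only respiratory complex encoded entirely in the nucleus. Complex III passes electrons from ubiquinol to cytochrome c and moves protons across the membrane, and cytochrome c carries the electrons on to complex IV. Complex V, the ATP synthase, lets protons return through its ring of c subunits and uses their flow to make ATP in its F1 head. Heart muscle is densely packed with mitochondria, and the nuclear genes of these complexes are among its most abundant messages. The mitochondrially encoded subunits of complexes III and V, and the other genes of the mitochondrial genome, are not in the table and were not analysed here.

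The deposited unit is FPKM, the fragments of a gene scaled to transcript length and to the mapped fragments of the sample. Plain FPKM can be compared between genes of different length, but the deposited values were also adjusted gene by gene. Levels of different genes are therefore compared only roughly here. The values sum to between 460715 and 515185 per sample in the hypertensive-LVH group and to between 482319 and 567727 in the control group. Sequencing depth is not given in the sources used here, so no counting interval can be attached to a value. Exact ties between samples divided both groups into 4 sets (samples 1 to 3, 4 to 6, 7 to 9 and 10 to 12), within which each gene had been adjusted before deposit. Control sample 3 had the highest sum of all 24 samples, and ANG II sample 12 the lowest. Control sample 2 and ANG II sample 6 stood apart by summed atrial markers, at 3238 and 2392 FPKM, and also had the highest sums of adipocyte markers in their groups. The text of the labels on RNA extraction names CRC cells. The defining genes of heart muscle were high, with Myh6, the cardiac myosin heavy chain, at a mean of 7906 FPKM in the control group.

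Every one of the 34 genes had a lower mean in the hypertensive-LVH group. With limma on log2(FPKM + 1) and Benjamini-Hochberg adjustment over the 14026 genes whose mean reached 0.1 FPKM, all 34 included, 30 fell at an adjusted p-value under 0.05 and 0 rose. Over all tested genes 12.6% fell and 20.9% rose by the same rule. The 34 log2 fold changes ranged from -0.58 (Atp5e) to -0.06 (Uqcrb), with a median of -0.34, against a median of 0.05 over all tested genes. The 4 genes that did not pass were Uqcrh (adjusted p = 0.0509), Sdhaf1 (adjusted p = 0.0515), Sdhaf3 (adjusted p = 0.16) and Uqcrb (adjusted p = 0.475) by limma. A log2 fold change under -0.5 together with the adjusted p-value was reached by 5 of the 34 genes, Atp5e, Atp5g1, Sdhb, Uqcrc1 and Uqcr11, against 1.4% of all tested genes. Abundant genes fell more often in general. Among the 233 other genes whose mean reached 300 FPKM, 44.2% fell, with a median log2 fold change of -0.11, whereas 25 of the 27 genes of the complexes above that level fell, with a median of -0.35.

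**Figure D1:**
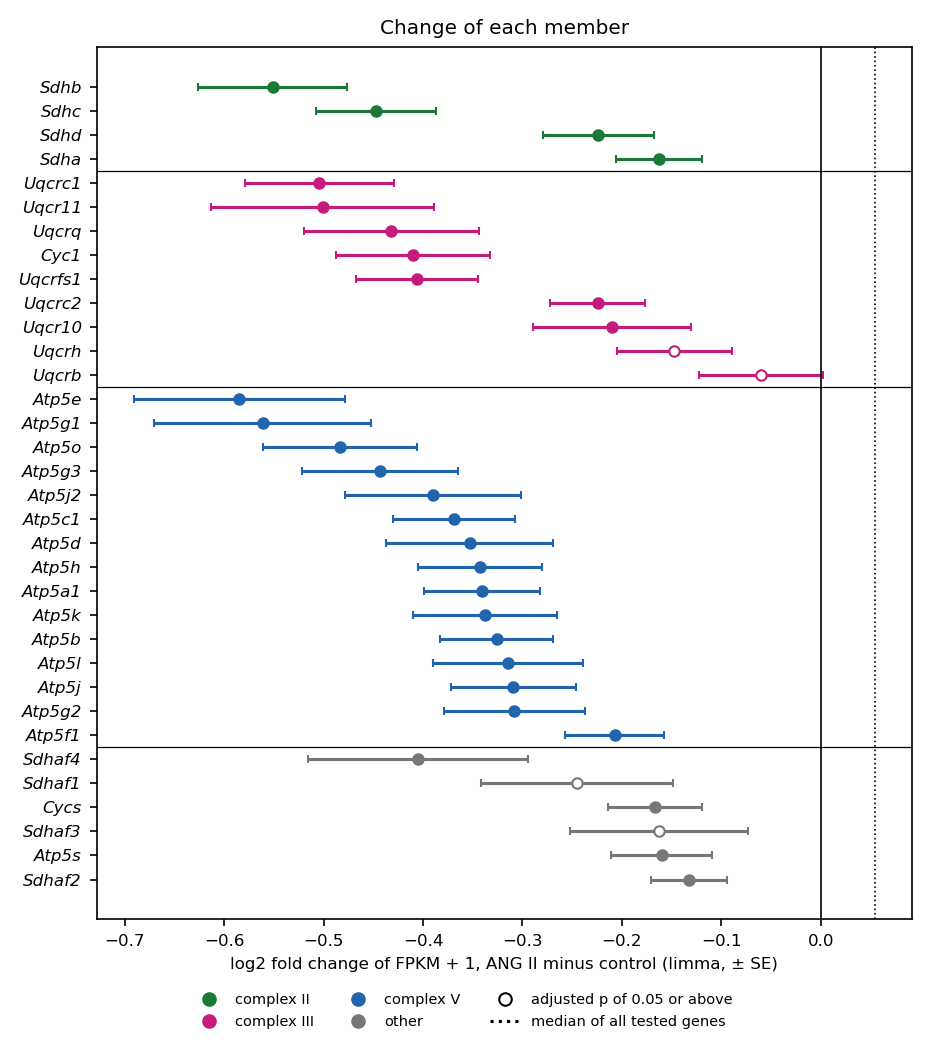
Log2 fold change of FPKM + 1 (ANG II minus control) with its standard error from limma for each of the 34 genes, grouped by complex and ordered by size. Open circles are the 4 genes with an adjusted p of 0.05 or above, and the dotted line is the median of all tested genes, 0.05; all 34 points lie below 0.

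The groups overlapped for all 34 genes, since 0 of them had every ANG II sample below every control sample. For 20 genes all 12 ANG II samples lay below the median of the controls, and for 29 genes at least 11 did. These counts describe the 34 genes alone and were not set beside those of all tested genes. The lowest control was control sample 2 for 29 of the 34 genes, and the highest was control sample 3 for 29 and control sample 4 for the other 5. In the hypertensive-LVH group the lowest value belonged to ANG II sample 12 for 12 genes, to ANG II sample 6 for 9 and to ANG II sample 7 for 7, although ANG II sample 7 also held the highest value for 14 genes. With each of the 24 samples left out in turn, between 29 and 32 of the 34 genes fell, and 29 genes fell in every one of these fits. With control sample 2 and ANG II sample 6 both left out, a setting added after the data were seen, 32 fell, Sdhaf1 (limma adjusted p = 0.0499) and Uqcrh (0.031) among them, and the medians of complexes II, III and V were -0.34, -0.41 and -0.35. Among the genes that fell with all samples, Uqcr10 alone lost its call in any of them. Together the 34 genes held 5.56% ± 0.325 (SD, n = 12) of the summed FPKM in the control group and 4.56% ± 0.327 (SD, n = 12) in the hypertensive-LVH group.

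**Figure D2:**
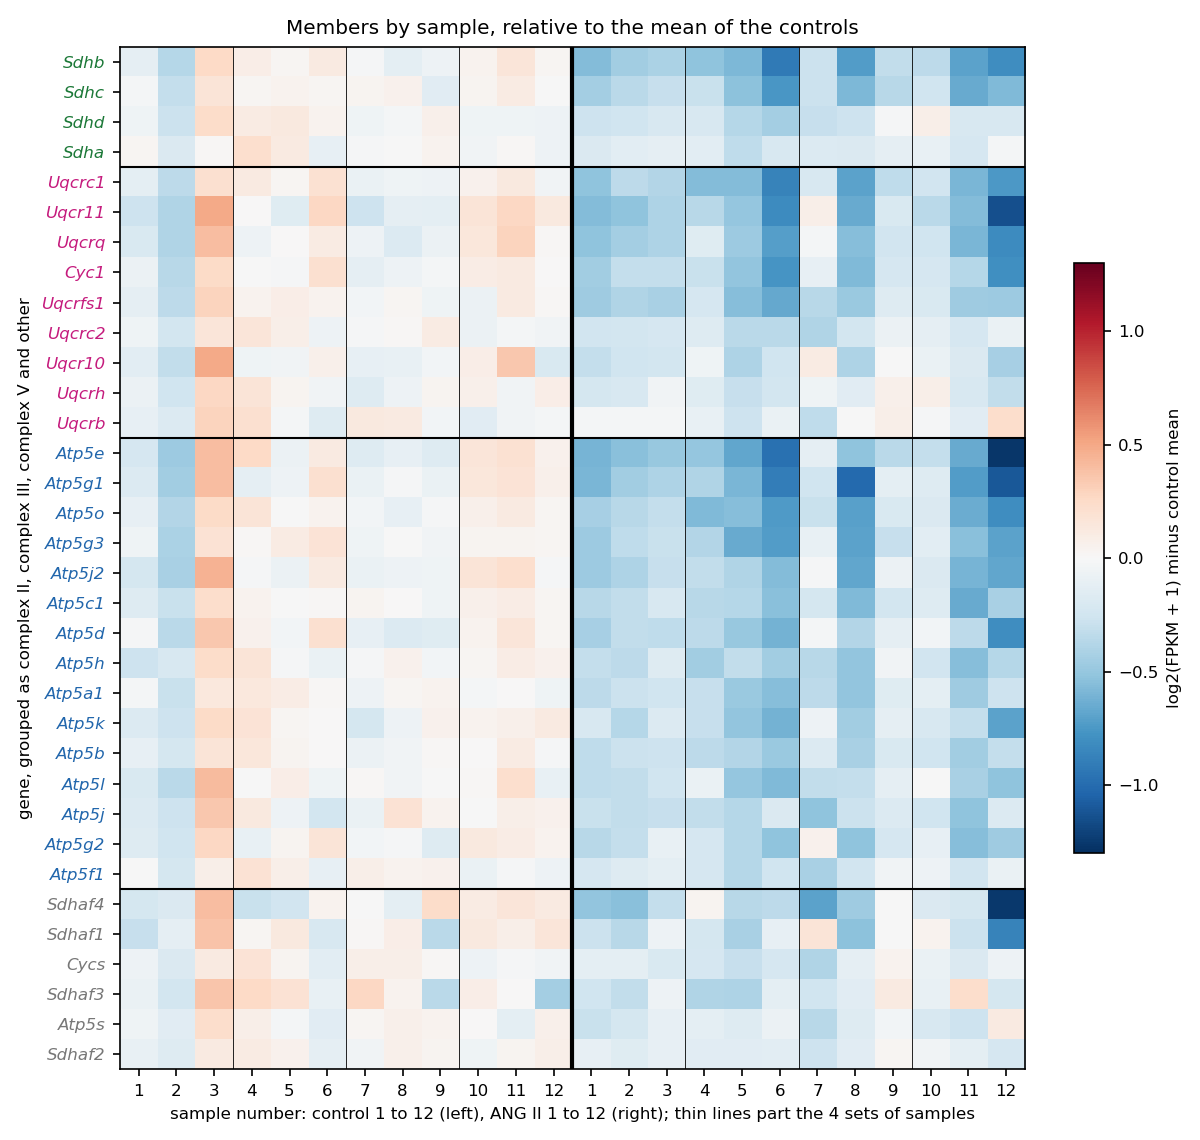
Log2(FPKM + 1) of each gene (rows) in each sample (columns), minus the mean of the 12 controls, so that blue is below and red above that mean. Control sample 2 is pale blue in most rows, control sample 3 is red in most rows, and the 12 ANG II columns on the right are blue in nearly all rows of complexes II and V.

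RefSeq promoter windows, from 250 bases before to 50 bases after the start of the gene, were matched to 28 of the 34 genes, 2 of them by a newer symbol. No window was matched for Atp5a1, Cyc1, Sdhc, Uqcrb, Uqcrc2 and Uqcrq. The 250 bases before the start are shown for the genes with the largest and smallest decrease of complexes II and V among those with a window, for Uqcrh, whose decrease was the smallest of the complex III genes with a window, and for Cycs, the carrier after complex III. Uqcrc1, the largest decrease of complex III, has NRF1 letters only after its start. All are from GRCm38.p6, 5′ to 3′ on the strand of the gene. They lie at chr4:140961021-140961270 (plus strand) for Sdhb, chr13:74350241-74350490 (minus strand) for Sdha, chr4:116075071-116075320 (minus strand) for Uqcrh, chr2:174464102-174464351 (minus strand) for Atp5e, chr3:105959264-105959513 (minus strand) for Atp5f1 (Atp5pb in RefSeq) and chr6:50566570-50566819 (minus strand) for Cycs. Capitals mark matches, on either strand, to GCGCANGCG (NRF1), CCGGAAG (ETS factors, which include GABP) or GGGCGG (Sp1).
Sdhb: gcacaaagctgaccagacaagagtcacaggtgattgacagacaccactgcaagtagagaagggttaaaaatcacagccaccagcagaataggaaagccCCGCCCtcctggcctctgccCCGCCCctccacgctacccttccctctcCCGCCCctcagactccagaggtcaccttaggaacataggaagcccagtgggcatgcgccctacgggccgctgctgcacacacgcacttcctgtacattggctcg
Sdha: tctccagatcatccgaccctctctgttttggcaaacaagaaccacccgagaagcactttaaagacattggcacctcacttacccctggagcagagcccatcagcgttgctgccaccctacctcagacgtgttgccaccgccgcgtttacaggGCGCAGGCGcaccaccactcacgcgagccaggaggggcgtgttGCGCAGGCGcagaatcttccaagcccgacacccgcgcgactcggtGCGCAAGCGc
Uqcrh: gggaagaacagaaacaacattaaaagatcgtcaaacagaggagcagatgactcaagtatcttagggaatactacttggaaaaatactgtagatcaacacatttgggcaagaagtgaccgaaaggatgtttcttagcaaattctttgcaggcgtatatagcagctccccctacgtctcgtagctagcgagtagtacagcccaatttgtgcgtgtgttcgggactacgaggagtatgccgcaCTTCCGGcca
Atp5e: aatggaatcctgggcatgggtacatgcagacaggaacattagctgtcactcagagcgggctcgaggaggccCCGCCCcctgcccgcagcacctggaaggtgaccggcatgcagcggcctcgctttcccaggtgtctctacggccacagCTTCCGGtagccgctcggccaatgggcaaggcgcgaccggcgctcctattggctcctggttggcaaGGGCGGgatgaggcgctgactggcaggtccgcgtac
Atp5f1: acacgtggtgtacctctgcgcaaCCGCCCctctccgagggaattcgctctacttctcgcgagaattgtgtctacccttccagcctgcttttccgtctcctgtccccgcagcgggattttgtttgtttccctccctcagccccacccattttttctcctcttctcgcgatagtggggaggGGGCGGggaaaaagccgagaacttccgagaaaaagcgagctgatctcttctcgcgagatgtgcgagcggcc
Cycs: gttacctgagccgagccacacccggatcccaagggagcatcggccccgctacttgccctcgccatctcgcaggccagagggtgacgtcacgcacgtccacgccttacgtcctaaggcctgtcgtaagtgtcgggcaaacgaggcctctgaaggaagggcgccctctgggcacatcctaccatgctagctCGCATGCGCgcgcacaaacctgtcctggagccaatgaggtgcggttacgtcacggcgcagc

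NRF1 and GABP are transcription factors known for their part in the expression of nuclear genes of respiration, and ERR receptors act on such genes with the coactivator PGC-1. Sdha has 3 NRF1 matches in the stretch printed above and Cycs has 1, whereas Sdhb has 3 Sp1 matches there and 0 NRF1 matches in its whole window. The NRF1 letters stood in 13 of the 28 windows (46.4%), against 12.7% of the 11012 windows of tested genes. The ETS letters stood in 11 (39.3% against 16.4%), and the ERR letters AAGGTCA in 5 (17.9% against 3.22%). The YY1 letters AAGATGGC stood in 2 (7.14% against 4.32%) and the Sp1 letters in 13 (46.4% against 61.9%). The 13 genes with NRF1 letters had a median log2 fold change of -0.34 and the 15 without them a median of -0.33. Among tested genes with NRF1 letters 16.4% fell by limma, and among those without them 12.3%. A match of letters is a description of the sequence and does not show that a factor binds there.

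All 4 subunit genes of complex II fell, but by unequal amounts. Sdhb encodes the iron-sulfur subunit that takes electrons from the flavoprotein. Its level ranged from 637 FPKM through a median of 838 to 986.5 in the controls, and from 436 through a median of 566 to 682 in the hypertensive-LVH group. Only control sample 2 lay below the highest ANG II sample, and 9 of 12 ANG II samples lay below all controls. The mean was 31.6% lower (log2 fold change -0.55 ± 0.075 SE, limma adjusted p = 9.78e-06). Sdha encodes the flavoprotein, which holds FAD and oxidises succinate. Its level ranged from 691 FPKM through a median of 786 to 912 in the controls, and from 624 through a median of 702 to 771 in the hypertensive-LVH group. All 12 ANG II samples lay below the control median, but only 5 lay below all controls. The mean was 10.8% lower (log2 fold change -0.16 ± 0.043 SE, limma adjusted p = 0.00576).

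The membrane anchors Sdhc and Sdhd, which together hold the heme b of the complex, lay between these values. Sdhc ranged from 391 FPKM through a median of 496 to 545 in the controls, and from 288 through a median of 367 to 405 in the hypertensive-LVH group. Here too only control sample 2 fell below the highest ANG II sample. The mean of Sdhc was 26.5% lower (log2 fold change -0.45 ± 0.06 SE, limma adjusted p = 9.22e-06), and that of Sdhd was 14.4% lower (log2 fold change -0.22 ± 0.056 SE, limma adjusted p = 0.0036). The ratio of Sdhb to Sdha was 1.06 ± 0.114 (SD, n = 12) in the control group and 0.811 ± 0.111 (SD, n = 12) in the hypertensive-LVH group, with ranges of 0.922 to 1.25 and 0.613 to 0.986. The ratio of Sdhc to Sdhd was 1.78 ± 0.128 (SD, n = 12) and 1.53 ± 0.158 (SD, n = 12). These ratios were chosen after the values were seen and were not tested. Without samples 4 to 6 of both groups, which leaves 9 against 9 samples, the log2 fold changes of Sdha and Sdhd were -0.12 and -0.15 (limma adjusted p = 0.0782 and 0.0972), while Sdhb and Sdhc kept their calls. Sdha and Sdhd were lower in each of the 4 sets. With quantile normalization the log2 fold change of Sdha was -0.04 (limma adjusted p = 0.54).

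The assembly factors of complex II were expressed far below the subunits, at control means of 6.69 to 25.6 FPKM against 275 to 831 FPKM. Sdhaf4, which helps join Sdha to Sdhb, ranged from 18.4 FPKM through a median of 23 to 30.3 in the controls and from 8.93 through a median of 17.6 to 23.3 in the hypertensive-LVH group. ANG II sample 12 was the lowest, and 8 of 12 ANG II samples lay below all controls. The log2 fold change was -0.41 ± 0.11 SE (limma adjusted p = 0.00717). Sdhaf2, which attaches FAD to Sdha, fell by 0.13 on the log2 scale (SE 0.038, limma adjusted p = 0.0103). Sdhaf1 and Sdhaf3, both needed for the iron-sulfur clusters of Sdhb, had log2 fold changes of -0.25 ± 0.097 SE and -0.16 ± 0.09 SE and did not pass the test. Sdhaf1 was near the threshold and passed with quantile normalization (limma adjusted p = 0.023), scaling by median ratios (0.0311), the length trend removed (0.0453), a filter at a mean of 1 (0.0481) and samples 7 to 9 left out (0.0355). The call for Sdhaf2 was lost without samples 4 to 6 (-0.12, limma adjusted p = 0.0682) and without samples 10 to 12 (-0.13, limma adjusted p = 0.0584).

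In complex III 7 of 9 subunit genes fell. Both of the core proteins and both of the nuclear-encoded catalytic subunits were among them. Uqcrc1, core protein 1, ranged from 861 FPKM through a median of 1084 to 1261 in the controls, and from 595 through a median of 748 to 945 in the hypertensive-LVH group. All ANG II samples were below the control median, 9 of 12 lay below all controls, and only control sample 2 lay below the highest ANG II sample. The mean was 29.2% lower (log2 fold change -0.50 ± 0.075 SE, limma adjusted p = 2.42e-05). Its partner Uqcrc2, core protein 2, had a mean 14.5% lower (log2 fold change -0.22 ± 0.048 SE, limma adjusted p = 0.000959). Uqcrfs1, the Rieske iron-sulfur protein that takes the first electron from ubiquinol, had a mean 24.6% lower (log2 fold change -0.41 ± 0.061 SE, limma adjusted p = 2.94e-05). Cyc1, the cytochrome c1 that hands the electron to cytochrome c, had a mean 24.4% lower (log2 fold change -0.41 ± 0.077 SE, limma adjusted p = 0.00031). Their control means were 519 and 810 FPKM.

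The 5 small subunit genes of complex III differed most among themselves. Uqcr11 ranged from 745 FPKM through a median of 937 to 1369.8 in the controls, and from 441 through a median of 683 to 1026 in the hypertensive-LVH group. ANG II sample 12 was the lowest and ANG II sample 7 the highest of its group, the latter above the control median. The log2 fold change was -0.50 ± 0.11 SE (limma adjusted p = 0.00157). Uqcrq fell by 0.43 on the log2 scale (SE 0.088, limma adjusted p = 0.000675) and Uqcr10 by 0.21 (SE 0.08, limma adjusted p = 0.0448). Uqcrb ranged from 595 FPKM through a median of 656 to 822 in the controls, and from 536 through a median of 659 to 788 in the hypertensive-LVH group. The groups lay over each other, with only 5 of 12 ANG II samples below the control median. Its log2 fold change was -0.06 ± 0.062 SE (limma adjusted p = 0.475). Uqcrh, the hinge protein between cytochrome c1 and cytochrome c, had a control mean of 707 FPKM and a log2 fold change of -0.15 ± 0.058 SE, with 10 of 12 ANG II samples below the control median. Uqcrh passed with scaling by median ratios (limma adjusted p = 0.0488), a filter at a mean of 1 (0.0446), no intensity trend (0.0464) and samples 7 to 9 left out (0.0369). The call for Uqcr10 was lost without samples 4 to 6 (log2 fold change -0.20, limma adjusted p = 0.166), without samples 10 to 12 (-0.18, 0.163) and without samples 1 to 3 (-0.19, 0.0932). It was also lost with the length trend removed (-0.13, limma adjusted p = 0.0714), with the set as a term (0.068) and by a Wilcoxon rank-sum test (0.0941). With quantile normalization the log2 fold change of Uqcrb was 0.04, and with the trend on transcript length removed it was 0.01.

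**Figure D3:**
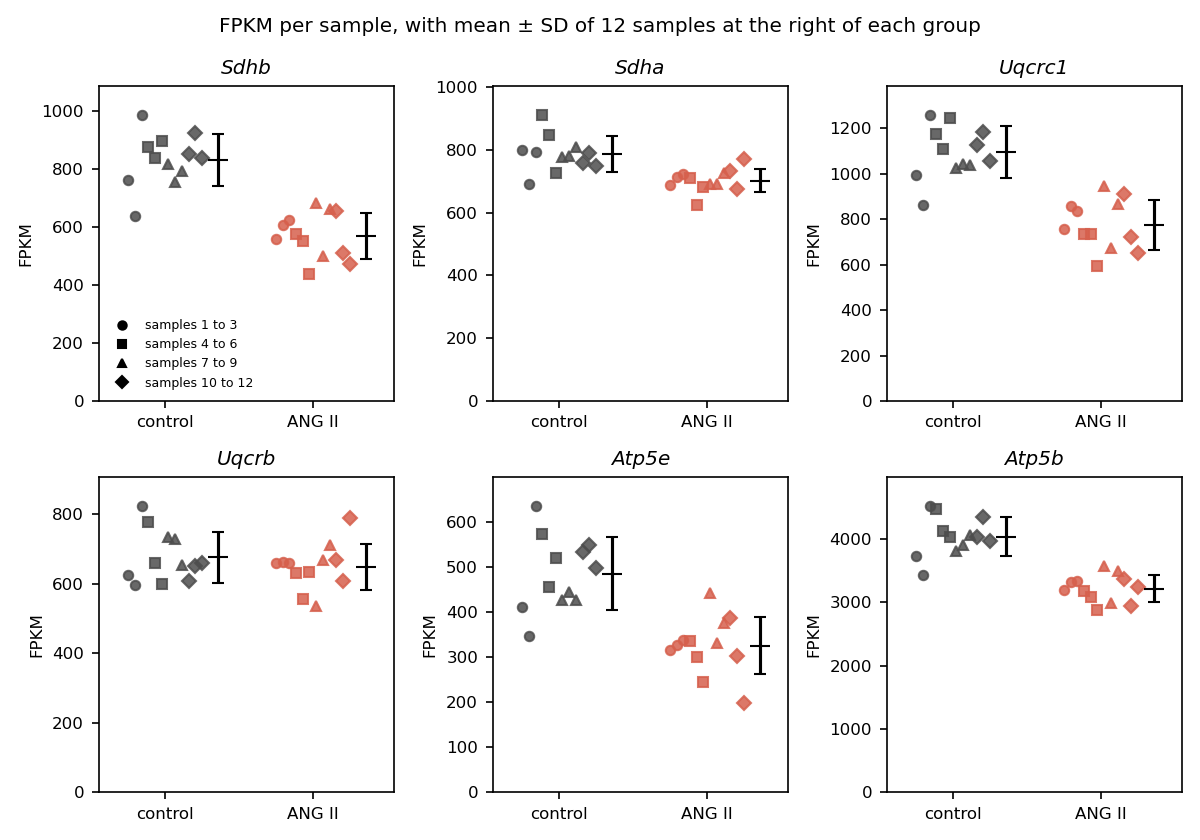
FPKM of Sdhb and Sdha (complex II), Uqcrc1 and Uqcrb (complex III) and Atp5e and Atp5b (complex V) in each sample, with the vertical axis from 0 and the symbol giving the set of samples; the mean and SD of 12 samples stand at the right of each group. The groups part almost entirely for Sdhb, Uqcrc1 and Atp5b, where 1 control lies below the highest ANG II sample, and lie over each other for Uqcrb.

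All 15 subunit genes of complex V fell. The F1 head was represented by 5 genes. Atp5b, the catalytic beta subunit and the most abundant of the 34 messages, ranged from 3432 FPKM through a median of 4034 to 4519.5 in the controls, and from 2879 through a median of 3222 to 3567 in the hypertensive-LVH group. Only control sample 2 lay below the highest ANG II sample, and 10 of 12 ANG II samples lay below all controls. The mean was 20.3% lower (log2 fold change -0.33 ± 0.057 SE, limma adjusted p = 0.000147). With quantile normalization this log2 fold change was -0.10 (limma adjusted p = 0.108). Atp5a1, the alpha subunit that alternates with beta in the head, had a mean 20.9% lower (log2 fold change -0.34 ± 0.058 SE, limma adjusted p = 0.000117). Of the central stalk, Atp5c1 (gamma) fell by 0.37 on the log2 scale and Atp5d (delta) by 0.35. Atp5e, the small epsilon subunit, ranged from 346 FPKM through a median of 476 to 636 in the controls, and from 199.6 FPKM, in ANG II sample 12, through a median of 330.1 to 443. All ANG II samples were below the control median. It had the largest decrease of the 34 genes, with a mean 33.0% lower (log2 fold change -0.58 ± 0.11 SE, limma adjusted p = 0.00022). Without samples 4 to 6 the log2 fold change of Atp5d was -0.28 (limma adjusted p = 0.056).

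The peripheral stalk, which holds the head still while the rotor turns, was represented by 4 genes, and all of them fell. Atp5o, the OSCP subunit that joins the stalk to the head, ranged from 954.5 FPKM through a median of 1256 to 1479.6 in the controls, and from 712 through a median of 887 to 1092 in the hypertensive-LVH group. Control sample 2 was the only control below the highest ANG II sample. The log2 fold change was -0.48 ± 0.078 SE (limma adjusted p = 6.22e-05). Atp5h (subunit d) fell by 0.34 on the log2 scale and Atp5j (subunit F6) by 0.31. Atp5f1 (subunit b) had the smallest decrease of the complex. It ranged from 527 FPKM through a median of 627 to 705 in the controls, and from 461 through a median of 531 to 597 in the hypertensive-LVH group. All 12 ANG II samples lay below the control median and 5 of 12 below all controls. Its log2 fold change was -0.21 ± 0.05 SE (limma adjusted p = 0.00268), and without samples 4 to 6 it was -0.16 (limma adjusted p = 0.0506).

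The accessory subunits in the membrane, Atp5j2 (subunit f), Atp5k (subunit e) and Atp5l (subunit g), fell by 0.39, 0.34 and 0.31 on the log2 scale. Subunits e and g lie where synthase dimers meet. Usmg5, a further accessory subunit of the synthase that the table lists under an older symbol and that was added after its values were seen, had a mean of 981 ± 166 FPKM (SD, n = 12) in the control group and 706 ± 71.3 FPKM (SD, n = 12) in the hypertensive-LVH group. All 12 ANG II samples were below the control median (log2 fold change -0.46 ± 0.081 SE, limma adjusted p = 0.000142). Atp5s, which shares the prefix but is no subunit, was low, at a control mean of 14.2 FPKM, and fell by 0.16 on the log2 scale (SE 0.051, limma adjusted p = 0.0177). Its call was lost without samples 1 to 3 (-0.14, limma adjusted p = 0.0686) and without samples 7 to 9 (-0.13, limma adjusted p = 0.102).

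The c subunit of the rotor ring is encoded by Atp5g1, Atp5g2 and Atp5g3, whose products differ in the import sequence that is cut off and end as the same mature protein. Atp5g1 ranged from 1315 FPKM through a median of 1751 to 2378 in the controls, and from 837 through a median of 1254 to 1646 in the hypertensive-LVH group. ANG II sample 12 was the lowest, and 6 of 12 ANG II samples lay below all controls. The log2 fold change was -0.56 ± 0.11 SE (limma adjusted p = 0.000426). Atp5g3 fell by 0.44 on the log2 scale (SE 0.078, limma adjusted p = 0.000159) from a control mean of 1300.3 FPKM, and Atp5g2 by 0.31 (SE 0.071, limma adjusted p = 0.0019) from a control mean of 451 FPKM. Of the summed FPKM of these genes, Atp5g1 held 50.8% ± 1.77 (SD, n = 12) in the control group and 48.1% ± 2.76 (SD, n = 12) in the hypertensive-LVH group. The share of Atp5g2 was 12.7% ± 0.537 (SD, n = 12) and 14.3% ± 1.15 (SD, n = 12), and that of Atp5g3 36.5% ± 1.71 (SD, n = 12) and 37.5% ± 1.89 (SD, n = 12). The ranges of all these shares overlapped between the groups, and the shares were not tested.

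**Figure D4:**
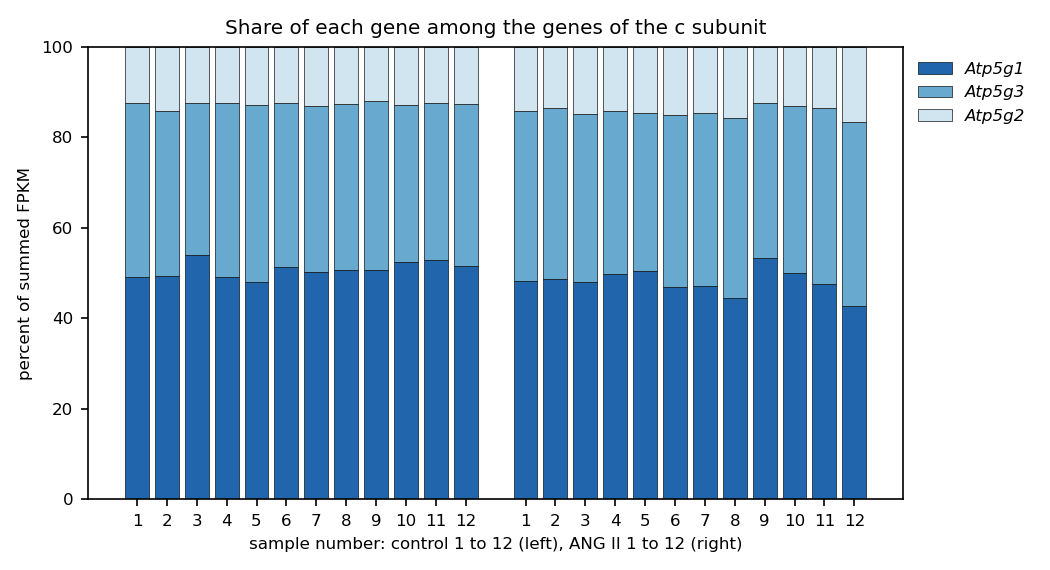
Share of Atp5g1, Atp5g3 and Atp5g2 in their summed FPKM (percent, stacked to 100) in each control sample on the left and each ANG II sample on the right. Atp5g1 holds from 48% to 54.1% in the controls and from 42.7%, in ANG II sample 12, to 53.3% in the hypertensive-LVH group.

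Cycs, the somatic cytochrome c that carries electrons from complex III to complex IV, changed less than most subunits. It ranged from 270.2 FPKM through a median of 308 to 349 in the controls, and from 234 through a median of 275 to 317 in the hypertensive-LVH group. The groups overlapped, although 11 of 12 ANG II samples lay below the control median. The mean was 10.9% lower (log2 fold change -0.17 ± 0.047 SE, limma adjusted p = 0.00884), and without samples 4 to 6 the call was lost (-0.13, limma adjusted p = 0.0978). Hccs, which attaches heme to cytochrome c and to cytochrome c1, had a log2 fold change of -0.10 (limma adjusted p = 0.149). The testis form Cyct lay near the floor, at control and ANG II means of 0.131 and 0.265 FPKM.

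Set side by side, the subunit genes of the 3 complexes had like medians. The median log2 fold change was -0.34 for the 4 genes of complex II, -0.41 for the 9 of complex III and -0.34 for the 15 of complex V. By comparison all 36 genes listed for complex I fell, with a median of -0.42, and 13 of 17 listed for complex IV, with a median of -0.40. The spread within a complex was wider than the gaps between these medians, reaching from -0.55 to -0.16 in complex II, from -0.50 to -0.06 in complex III and from -0.58 to -0.21 in complex V. The summed FPKM of complex V was 19352 ± 1809.7 (SD, n = 12) in the control group and 14937 ± 1494 (SD, n = 12) in the hypertensive-LVH group. That of complex III was 6422 ± 688 (SD, n = 12) and 5112 ± 497 (SD, n = 12), and that of complex II 2379 ± 177 (SD, n = 12) and 1864 ± 147 (SD, n = 12). The sum for complex V was 8.13 ± 0.289 (SD, n = 12) times that of complex II in the control group and 8.01 ± 0.264 (SD, n = 12) times in the hypertensive-LVH group. The ratio of complex III to complex II was 2.70 ± 0.14 (SD, n = 12) and 2.74 ± 0.106 (SD, n = 12), and that of complex V to complex III 3.02 ± 0.0614 (SD, n = 12) and 2.92 ± 0.0941 (SD, n = 12). The ranges of each ratio overlapped between the groups, and no difference between complexes was tested.

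Within complex III the core and catalytic genes had a median log2 fold change of -0.41 and the small subunit genes one of -0.21. Within complex V the medians were -0.35 for the F1 head, -0.33 for the peripheral stalk, -0.44 for the genes of the c ring and -0.34 for the accessory subunits. Short and long transcripts had near medians. The 15 genes with transcripts under 800 bases had a median log2 fold change of -0.34 and the 19 longer ones a median of -0.33. Other genes under 800 bases with a mean of at least 10 FPKM (353 genes) had a median of -0.09. With the trend of each sample on transcript length removed, the medians of the short and long genes were -0.29 and -0.32.

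The direction was shared by the 4 sets of samples, and its size was not the same in each. Of the 34 genes, 31 were lower in all 4 sets and 3 in 3 sets, the exceptions being Uqcrh in samples 7 to 9 and Uqcrb and Sdhaf3 in samples 10 to 12. These counts were not set beside those of all tested genes, so they have no background here. In samples 1 to 3 the median differences on the log2 scale were -0.26, -0.29 and -0.26 for complexes II, III and V. In samples 4 to 6 they were -0.50, -0.46 and -0.47. In samples 7 to 9 they were -0.28, -0.17 and -0.30, and in samples 10 to 12 -0.31, -0.40 and -0.47. Complex III thus had the smallest median in samples 7 to 9, where Uqcr10, Uqcr11 and Uqcrh differed by -0.02, -0.08 and 0.02. A limma fit with terms for group by set gave 0 of the 34 genes at an adjusted p-value under 0.05, against 7.49% of all tested genes. The lowest adjusted p among the 34 was 0.263 (Atp5e) in this limma fit. At an unadjusted p under 0.05 it gave 0 of the 34, a count with no background here. Each set holds 3 against 3 samples, and the values had been adjusted gene by gene within these same sets. The 0 calls therefore do not show that the difference was the same in each set.

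**Figure D5:**
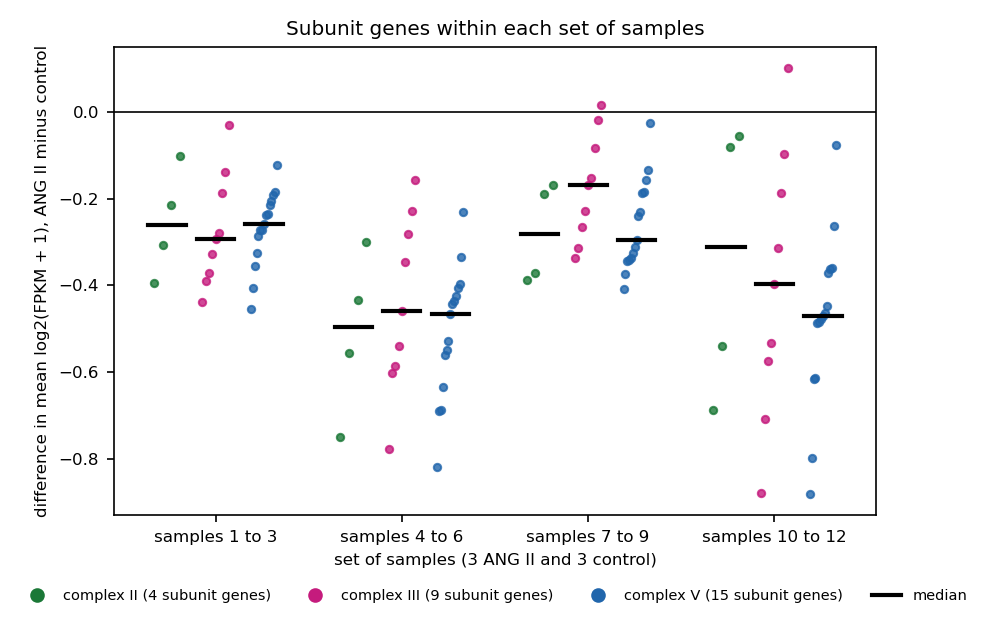
Difference in mean log2(FPKM + 1), ANG II minus control, of each subunit gene of complexes II, III and V within each set of 3 ANG II and 3 control samples; bars are medians. The medians lie between -0.50 and -0.17 in all sets, and the 2 points above 0 are Uqcrh in samples 7 to 9 and Uqcrb in samples 10 to 12.

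The deposited values carry the adjustment within sets, in which the groups may have had a part. The differences within sets before it were therefore recovered from the spacing of the values, a step added after the data were seen. The recovery took as given that each gene was rescaled around a single ANG II minus control value, shared by the sets. That assumption was not tested. For Sdha the value was -205.7 FPKM, outside its recovered differences of -166.6 to -28.9 FPKM. For Atp5l it was -131.8 FPKM, outside -194.7 to -132.6 FPKM. The recovery was possible for 30 of the 34 genes and for 11334 of all tested genes. All 30 were lower in the hypertensive-LVH group in the mean over the sets, 28 of them in all 4 sets. These 2 counts were not set beside those of all recovered genes. In an exact permutation test of the labels within sets (160000 relabelings, two-sided), 26 of the 30 fell at an adjusted p-value under 0.05 over all recovered genes, against 11.2% of these. The 4 that did not were Uqcrh, Uqcrb, Sdhaf1 and Sdhaf3, the same genes as in the deposited values. These calls rest on the untested assumption of the recovery. All 4 subunit genes of complex II and all 15 of complex V fell, and 4 of complex III did. For the complex III genes Uqcrfs1, Uqcrq and Uqcr10, and for Cycs, no solution was found.

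Genes that serve the complexes moved in part with them. Of 7 assembly factors of complex III, 6 fell, Immp2l by 0.40, Uqcc2 by 0.38, Uqcc1 by 0.37, Bcs1l by 0.35, Lyrm7 by 0.24 and Ttc19 by 0.14 on the log2 scale, while Uqcc3 had a log2 fold change of 0.05. Of 5 measured genes for assembly and inhibition of complex V, Atpaf1 and Atpaf2, which assemble F1, fell by 0.27 and 0.29, and Tmem70 and Tmem242, which act on the c ring, fell by 0.23 and 0.27. The fifth, Atpif1, encodes the inhibitor of ATP hydrolysis by the synthase and rose. It ranged from 42.1 to 92.4 FPKM in the controls and from 55.5 to 95 in the hypertensive-LVH group. None (0) of the 12 ANG II samples lay below the control median, and the log2 fold change was 0.31 ± 0.1 SE (limma adjusted p = 0.021). Its call was lost with scaling by median ratios (0.27, limma adjusted p = 0.0592) and without samples 4 to 6 (0.35, limma adjusted p = 0.0641).

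Upstream of the complexes, 12 of 14 other citrate cycle enzymes fell, Idh3b and Suclg1 by 0.44 each on the log2 scale. Of 11 genes of ubiquinone synthesis 10 fell, with the largest decrease in Coq10a, which binds the quinone (log2 fold change -0.50 ± 0.072 SE, limma adjusted p = 1.74e-05). Of 7 carriers and porins 4 fell. They were the phosphate carrier Slc25a3 (-0.41 on the log2 scale), the muscle ADP/ATP carrier Slc25a4 (-0.32), Vdac3 (-0.28) and Vdac1 (-0.26), whereas Slc25a5 (-0.0039), Vdac2 (-0.05) and Slc25a31 (-0.06) did not pass. Slc25a31 lay near the floor, at control and ANG II means of 0.165 and 0.118 FPKM. Among 11 regulators of mitochondrial genes, Esrra, which encodes the receptor ERRα, fell from 81.9 ± 8.65 to 64.5 ± 6.23 FPKM (SD, n = 12 each; log2 fold change -0.34 ± 0.058 SE, limma adjusted p = 0.000121), and all 12 ANG II samples lay below the control median. Yy1 rose by 0.14 (SE 0.05, limma adjusted p = 0.0393), a call that was lost with quantile normalization (limma adjusted p = 0.217), scaling by median ratios (0.16) and without samples 4 to 6 (0.182), while Esrra kept its call in each. The call for Slc25a4 was lost with quantile normalization (limma adjusted p = 0.0755) and without samples 4 to 6 (0.123). The other 9 did not pass, among them Ppargc1a, which encodes PGC-1α, with a log2 fold change of 0.27 ± 0.26 SE, and the median of the list was 0.02. The pooled value of Ppargc1a joins sets of opposite sign, with differences of 1.59, -1.30, 0.62 and 0.17 in the 4 sets in order (limma adjusted p of the group by set terms = 0.00426).

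Markers of cell types moved as well. Of 15 cardiomyocyte markers 8 fell and 1 rose, with a median log2 fold change of -0.30 and summed FPKM of 66251 to 88128 in the control group and 50476 to 74291 in the hypertensive-LVH group. The troponin gene Tnni3 fell most, by 0.63 on the log2 scale, and Mybpc3 rose by 0.21. The call for Mybpc3 was lost with scaling by median ratios (limma adjusted p = 0.207) and with the length trend removed (0.0635). All 10 macrophage markers rose, with summed FPKM of 272 to 617 and 354 to 1080, and Cd68 by 0.92. Within the 4 sets in order Cd68 differed by 0.06, 1.39, 1.77 and 0.46 (limma adjusted p of the group by set terms = 0.115). By these terms C1qa, C1qb, C1qc and Csf1r passed (limma adjusted p = 0.0425, 0.0406, 0.0404 and 0.0231), and the other macrophage markers did not. C1qc differed by -0.03 within samples 1 to 3 and Fcgr1 by -0.03 within samples 10 to 12, while the other macrophage markers were higher in every set. Of 10 fibroblast markers 5 rose and 1 fell (sums of 733 to 1775 and 1247 to 3594 FPKM), with the largest change in Col1a1, at means of 86.7 and 292 FPKM. Its fitted log2 fold change was 2.77 with 3 negative control values, those of samples 4 to 6, set to 0, whereas the log2 ratio of its means was 1.75. The difference was 8.77 within samples 4 to 6 and 0.51, 1.24 and 0.56 within the other sets. Of 10 endothelial markers 2 rose and 1 fell (sums of 928 to 1256 and 993 to 1652 FPKM, Pecam1 0.37). Of 10 smooth muscle and pericyte markers 3 rose and 2 fell (283 to 482 and 353 to 536 FPKM), with the largest change in Tagln, at means of 17.5 and 37.8 FPKM, a log2 fold change of 1.32 with 1 negative control set to 0, a log2 ratio of means of 1.11 and a difference of 4.42 within samples 4 to 6. Of 7 red blood cell markers 5 rose (92.3 to 2950 and 780 to 6446 FPKM). Hba-a2 changed most, at means of 169 and 629 FPKM, and its fitted log2 fold change was 3.39 with 3 negative controls set to 0, whereas the log2 ratio of its means was 1.90. Of the 5 atrial markers measured, 0 passed by limma, and their sums ran from 2.81 to 3238 FPKM in the control group and from 9.03 to 2392 FPKM in the hypertensive-LVH group. The next highest sums after control sample 2 and ANG II sample 6 were 379 and 656 FPKM. Of the 6 skeletal muscle markers measured, 2 fell and 1 rose (3.26 to 7.93 and 3.26 to 15.7 FPKM, Tnnt3 0.80 with 2 negative controls set to 0), and of the 7 adipocyte markers measured 1 rose (25.4 to 84.8 and 32.4 to 97.5 FPKM, Cidea 0.31). No marker in the table was at 0 in all samples. The part of these shifts in the lower FPKM of complexes II, III and V was not tested, and in whole tissue fewer cells of a type and less RNA per cell cannot be told apart.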

How the data were processed

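RNA of 24 left ventricular samples (12 ANG II, 12 control) was sequenced by the authors, who deposited 1 FPKM value per gene and sample. The submitters' processing notes name HISAT, Bowtie2 and RSEM, and the genome build of the reads is not given in the sources used here. The deposited values are not plain FPKM, since 2741 of them (0.766%) are negative, 0 of these among the genes described here, and between 218 and 546 genes are tied exactly in each pair of samples of 1 group within a set, against at most 14 in other pairs. Many genes of these complexes have processed pseudogenes, and how shared reads were divided is not given in the sources used here.

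Negative values were set to 0, 1 was added and the log2 taken, which understates fold changes of low genes. Setting negative values to 0 can overstate the change of a gene that has them in 1 group, such as Col1a1 and Hba-a2. Genes with a mean of at least 0.1 FPKM were tested with limma 3.58.1 in R 4.3.3 (intensity trend, two-sided, Benjamini-Hochberg over all 14026). Summaries were made with numpy 2.4.6, scipy 1.17.1 and pandas 2.3.3 under Python 3.11.15, and figures with matplotlib 3.10.9. How well the recovery of differences within sets suits the deposited values was not tested. Transcript lengths are from GENCODE vM21, and promoter windows from RefSeq (GRCm38.p6). The correlations of the 12 pairs of equal number, taken on deviations from the group means, ranged from -0.557 to -0.00109. The values had been adjusted within the sets that hold both samples of a pair, which can itself lower these correlations. They therefore cannot show whether replicate numbers pair the samples.

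Every gene of the complexes could be named, every gene of pathway lists of up to 7 genes, regulators past the adjusted p-value, and otherwise the largest change of a list. Ppargc1a, Suclg1, Usmg5 and the macrophage markers C1qa, C1qb, C1qc, Csf1r and Fcgr1 were named after their values were seen. The genes and lists were chosen with earlier results of these data known. The alternatives were quantile normalization, scaling of samples by median ratios, a Wilcoxon rank-sum test, a fit without the intensity trend, a pseudocount of 0.1, a filter at a mean of 1 or none, the replicate number as a block, the set as a term, each set alone or left out, each sample left out and removal of the trend on transcript length. Differences before the adjustment, and the fit without control sample 2 and ANG II sample 6, were added after the data were seen.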

Additional observations from a re-analysis of the deposited data

How the results depend on the processing

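The counts and medians of the 3 complexes kept their direction under quantile normalization, scaling by median ratios, a Wilcoxon rank-sum test, a fit without the intensity trend, a pseudocount of 0.1, a filter at a mean of 1 FPKM or none, removal of the length trend and the set as a term, with 29 to 32 of the 34 genes lower. The replicate block gave 29 and changed the call of Uqcr10 alone (limma adjusted p = 0.0663). Of the 12 pairs of equal number 0 had a correlation over 0.1, and 0 ANG II samples correlated best with their own number. After the adjustment within sets these correlations do not decide whether the samples are paired. With samples left out in turn the count was 29 to 32 (complex III 6 to 8).

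Single sets of 3 against 3 samples changed the counts. Within samples 1 to 3, 7 to 9 and 10 to 12 limma called 0 of the 34 genes (0 in complexes II, III and V each), with 1, 7 and 20 lower at an unadjusted p under 0.05, and within samples 4 to 6 it called 21. Over all tested genes it called 0, 304 and 11 lower in those 3 sets and 705 in samples 4 to 6, by adjusted p-value. Genes lower at an unadjusted p were not counted over all tested genes, so those counts have no background here. The median of complex II was -0.50 within samples 4 to 6, and that of complex III -0.17 within samples 7 to 9. Without samples 4 to 6 the count was 23, with 2 in complex II, as Sdha, Sdhd, Sdhaf2, Atp5d, Atp5f1, Cycs and Uqcr10 lost their calls. Other sets left out cost the calls of Uqcr10 (1 to 3 or 10 to 12), Atp5s (1 to 3 or 7 to 9) and Sdhaf2 (10 to 12). Without control sample 2 and ANG II sample 6 the count was 32. By the differences recovered from before the adjustment, which rest on an untested assumption, 4 genes of complex III fell, of the 6 with a solution. The log2 fold change turned positive for Uqcrb under quantile normalization (0.039), with the length trend removed (0.0074) and within samples 10 to 12 (0.10), for Sdhaf3 within samples 10 to 12 (0.086) and for Uqcrh within samples 7 to 9 (0.016), none past the test. The cause of these changes was not tested. The median of all tested genes was -0.02 under quantile normalization and 0.02 under median-ratio scaling, against 0.05.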
